A study of Mus musculus with 4 samples.

Results

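The 6 genes described here, Il5, Il13, Csf2, Csf1, Cxcl2 and Cxcl3, encode secreted proteins that drive type 2 immunity or act on myeloid cells. They were taken by symbol, 1 row each, from the 32285 gene rows of a single-cell RNA sequencing study. The cells were regulatory T (Treg) cells of the visceral adipose tissue (VAT) of mice. A pair of separate experiments was run, and in each the cells of a pair of conditions carried antibody-borne oligonucleotide tags (hashtags) and were mixed 1:1 before capture. The Srebf2 pool joined cells of 4 Foxp3YFP-cre Srebf2WT/WT males (WT, Hashtag 1) and 4 Srebf2flox/flox males (KO, Hashtag 2), all aged 25 weeks and kept at steady state. The Cre recombinase is under control of Foxp3, and the Foxp3YFP-cre allele is named ahead of both genotypes and taken here to be shared. The diet pool joined cells of 5 males on normal chow (NCD, Hashtag 3) and 5 males on a high-fat diet (HFD, Hashtag 4), after 22 weeks of diet. All mice of the diet pool carried Foxp3thy1.1 and PpargTdt alleles and were 23 to 27 weeks old. No label maps a cell to a mouse, so each condition is 1 pooled sample with no replicate check. No p-value is given, and all intervals are 95% intervals that cover counting error only, not the spread between mice or sorts. Intervals of levels and of their ratios treat each RNA molecule as independent, so they also leave out the spread between cells.

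Cells had been sorted as live CD3+ CD4+ Foxp3+ T cells, and the cells kept here had 500 or more genes and a mitochondrial share under 10%. They also had at least 90% of hashtag molecules from 1 hashtag and no molecule of Cd79a, Lyz2 or Cd8a, which mark B cells, macrophages and CD8 T cells. This left 3490 WT, 3956 KO, 4938 NCD and 4512 HFD cells, with medians of 3589.5, 3640.5, 3989 and 3193.5 unique molecular identifiers (UMIs, 1 per captured RNA molecule) per cell. Srebf2 itself stood at 65.7 CPM (the summed UMIs of a gene over the summed UMIs of the condition, scaled to the usual common total) in WT and 3.95 in KO. The 6 Treg markers checked were all present, at a summed 3454 to 3778 CPM, and cells with a Foxp3 UMI made up 55.4% of WT and 56.7% of KO, and 53.7% of NCD and 40.5% of HFD cells. The 6 markers of mast cells and basophils summed to 4.01 to 8.76 CPM, mostly Hdc at 3.47 to 7.91 CPM, with Cpa3 also detected and Mcpt8, Fcer1a and Ms4a2 at 0 in all 4 conditions. Of the 3 eosinophil markers Prg2 was at 0.0539 to 0.631 CPM and Siglecf and Epx were at 0, and the neutrophil list summed to at most 0.0714 CPM. The 5 stromal markers summed to 1.04 CPM in NCD (4 of 5 detected) and 73.7 CPM in HFD (5 of 5), and the B cell list to 90.6 and 263 CPM with Cd79a at 0 by the filter. The 3 markers of conventional CD4 T cells, Cd40lg, Il4 and Il2, were all detected in each condition. They summed to 112 to 137 CPM, mostly Cd40lg at 108 to 134 CPM. The part of these cell types in the diet results was not tested. The 2 libraries shared 135 barcodes, 87 of them among kept cells.

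Interleukin-5 is the main growth and survival factor of eosinophils, and interleukin-13 acts on epithelium, macrophages and smooth muscle in type 2 responses. In lean adipose tissue these cytokines are best known as products of group 2 innate lymphoid cells, which share the interleukin-33 receptor ST2 (gene Il1rl1) with the Treg cells of this tissue. Granulocyte-macrophage colony-stimulating factor (Csf2) and macrophage colony-stimulating factor (Csf1) support myeloid cells, and the chemokines CXCL2 and CXCL3 draw neutrophils through the receptor CXCR2. Signals through ST2 and the T cell receptor reach such genes through NF-kappa-B, NFAT and AP-1 factors, and GATA3 is the lineage factor of type 2 cytokine genes.

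The type 2 cytokine genes lie 86091 bases apart on chromosome 11 of the mouse build GRCm38.p6, Il13 at chr11:53631323-53634702 and Il5 at chr11:53720794-53725103, with Rad50 between them. The 250 bases before each start, given by RefSeq on the strand of the gene, are shown with the single GATA hexamer of each in capitals. The letters searched were AGATAA or AGATAG, as well as TGATAA or TGATAG, on both strands, and they were chosen with the sequences in view.
Il5 (chr11:53720544-53720793, plus strand): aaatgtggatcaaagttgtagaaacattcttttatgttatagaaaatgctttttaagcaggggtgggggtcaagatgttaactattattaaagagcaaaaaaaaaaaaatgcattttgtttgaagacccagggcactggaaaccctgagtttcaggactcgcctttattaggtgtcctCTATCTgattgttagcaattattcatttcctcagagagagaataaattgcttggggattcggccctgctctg
Il13 (chr11:53634703-53634952, minus strand): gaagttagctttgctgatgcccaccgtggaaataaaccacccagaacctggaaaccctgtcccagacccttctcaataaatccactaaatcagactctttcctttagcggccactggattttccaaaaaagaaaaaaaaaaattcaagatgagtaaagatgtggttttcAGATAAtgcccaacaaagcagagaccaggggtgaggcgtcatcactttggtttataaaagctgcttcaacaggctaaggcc
The hexamer begins 72 bases before the start of Il5, where it reads as the reverse complement, and 81 bases before that of Il13. The windows of Csf2 and Cxcl3 also held 1 such hexamer each, and those of Csf1 and Cxcl2 held none. Such a hexamer was found in 26.5% of 32851 RefSeq promoter windows of this length, and a match is a description of letters only.

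Il5 was held by few cells. It had 249 UMIs in 109 WT cells, 262 in 82 KO cells, 387 in 126 NCD cells and 16 in 12 HFD cells. These were 3.12% (2.57 to 3.76) of WT and 2.07% (1.65 to 2.57) of KO, and 2.55% (2.13 to 3.03) of NCD and 0.266% (0.137 to 0.464) of HFD cells. The levels were 17.8 CPM in WT and 15.9 in KO, and 17.4 in NCD and 0.863 in HFD, so that only HFD stood apart beyond the counting intervals. The UMIs were also unevenly spread: 1 NCD cell held 117 of them (30.2%), and the 5 richest cells held 37.3% in WT, 43.5% in KO and 47.5% in NCD.

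Il13 was the rarest of the 6 by cells. It had 261 UMIs in 45 WT cells, 160 in 32 KO cells, 226 in 45 NCD cells and 9 in 6 HFD cells, or 1.29%, 0.809%, 0.911% and 0.133% of cells. The levels were 18.6 CPM (16.4 to 21.0) in WT and 9.73 (8.28 to 11.4) in KO, and 10.2 (8.90 to 11.6) in NCD and 0.485 (0.222 to 0.921) in HFD. By level WT was highest, KO and NCD overlapped, and HFD was lowest. By share of cells the intervals of WT (0.942% to 1.72%), KO (0.554% to 1.14%) and NCD (0.665% to 1.22%) overlapped. A median holding cell had 1 UMI in WT and KO and 2 in NCD, yet the 5 richest cells held 57.9% of the UMIs in WT, 68.1% in KO and 58.4% in NCD.

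Csf2, the gene of granulocyte-macrophage colony-stimulating factor, lies 522166 bases beyond Il5 on the same chromosome (chr11:54247270-54249899). It had 260 UMIs in 128 WT cells, 328 in 112 KO cells, 836 in 269 NCD cells and 22 in 14 HFD cells. The levels were 18.6 CPM (16.4 to 21.0) in WT and 19.9 (17.8 to 22.2) in KO, and 37.7 (35.1 to 40.3) in NCD and 1.19 (0.744 to 1.80) in HFD. NCD was highest, WT and KO overlapped, and HFD was lowest. Of the KO UMIs, 74 (22.6%) were in 1 cell.

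Csf1, the gene of the growth factor of macrophages, lies on chromosome 3 (chr3:107741048-107760469) and was spread thinly over many cells. A UMI was found in 26.1% of WT and 23.1% of KO, and 37.9% of NCD and 6.34% of HFD cells, with a mean of 1.38 to 1.80 UMIs per holding cell. The levels were 99.6 CPM in WT and 88.8 in KO, and 151 in NCD and 21.3 in HFD. The highest cell held 15 UMIs, and the 5 richest cells held 1.49% to 5.57% of the UMIs of a condition, unlike the uneven spread of Il5, Il13 and Csf2.

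The chemokine genes Cxcl3 (chr5:90786101-90788093) and Cxcl2 (chr5:90903899-90905938) lie 115805 bases apart on chromosome 5. The longest run of bases that the 250 bases before their starts have in common is 11 bases long, and it is in capitals here. It has the form of a kappa-B site, the kind of sequence bound by NF-kappa-B factors.
Cxcl2 (chr5:90903649-90903898, plus strand): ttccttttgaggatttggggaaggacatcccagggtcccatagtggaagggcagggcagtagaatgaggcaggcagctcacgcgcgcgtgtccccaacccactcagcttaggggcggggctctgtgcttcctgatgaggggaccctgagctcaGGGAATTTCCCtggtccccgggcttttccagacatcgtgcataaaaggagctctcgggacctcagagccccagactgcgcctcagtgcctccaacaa
Cxcl3 (chr5:90785851-90786100, plus strand): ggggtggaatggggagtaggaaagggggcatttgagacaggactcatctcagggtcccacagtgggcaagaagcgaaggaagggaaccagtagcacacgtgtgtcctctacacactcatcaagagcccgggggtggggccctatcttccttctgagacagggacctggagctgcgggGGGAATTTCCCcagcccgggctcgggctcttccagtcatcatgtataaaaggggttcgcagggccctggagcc
The run, GGGAATTTCCC, begins 97 bases before the start of Cxcl2 and 73 bases before that of Cxcl3. These letters, searched on both strands, were found in 0.0426% of the 32851 windows and in none of the windows of Il5, Il13, Csf2 and Csf1. The run was picked because both chemokine windows hold it, and any given run of this length is rare. These counts are therefore a description of letters only. The windows of the chemokine genes had 58.7% identical columns when aligned, against 43.6% to 52.6% for the other pairs among the 6 genes. The AP-1 letters TGANTCA were in none of the 6 windows and in 6.75% of all windows. The NFAT core GGAAA was in all 6 windows and in 55.6% of all windows, and in both chemokine genes 1 match overlapped the shared run. The sources used here do not give how reads common to related chemokine genes were counted.

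Cxcl2 was by far the most abundant of the 6 by UMIs. Its levels were 2548 CPM in WT and 1658 in KO, and 1705 in NCD and 222 in HFD. A UMI was found in 47.6% (45.9 to 49.3) of WT and 35.0% (33.5 to 36.5) of KO, and 37.9% (36.6 to 39.3) of NCD and 7.85% (7.08 to 8.67) of HFD cells. WT was highest and HFD lowest on both measures. Many cells held large amounts: cells with 10 or more UMIs were 20.9% of WT and 14.7% of KO, and 16.8% of NCD and 2.11% of HFD cells, and held 92.0%, 91.7%, 91.1% and 85.1% of the Cxcl2 UMIs. The highest cell, in WT, had 321.

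Cxcl3 was held by fewer cells than Cxcl2. Its levels were 117 CPM (112 to 123) in WT and 114 (109 to 119) in KO, and 51.5 (48.5 to 54.6) in NCD and 10.9 (9.49 to 12.6) in HFD. A UMI was found in 7.99% of WT and 6.34% of KO, and 4.66% of NCD and 1.06% of HFD cells. WT and KO overlapped in level, both were above NCD, and HFD was lowest. In HFD, 57 of the 203 UMIs (28.1%) were in 1 cell, and in WT 166 of 1646 (10.1%). WT and NCD came from different alleles, mice and libraries, and levels set across the 2 pools carry that difference.

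**Figure D1:**
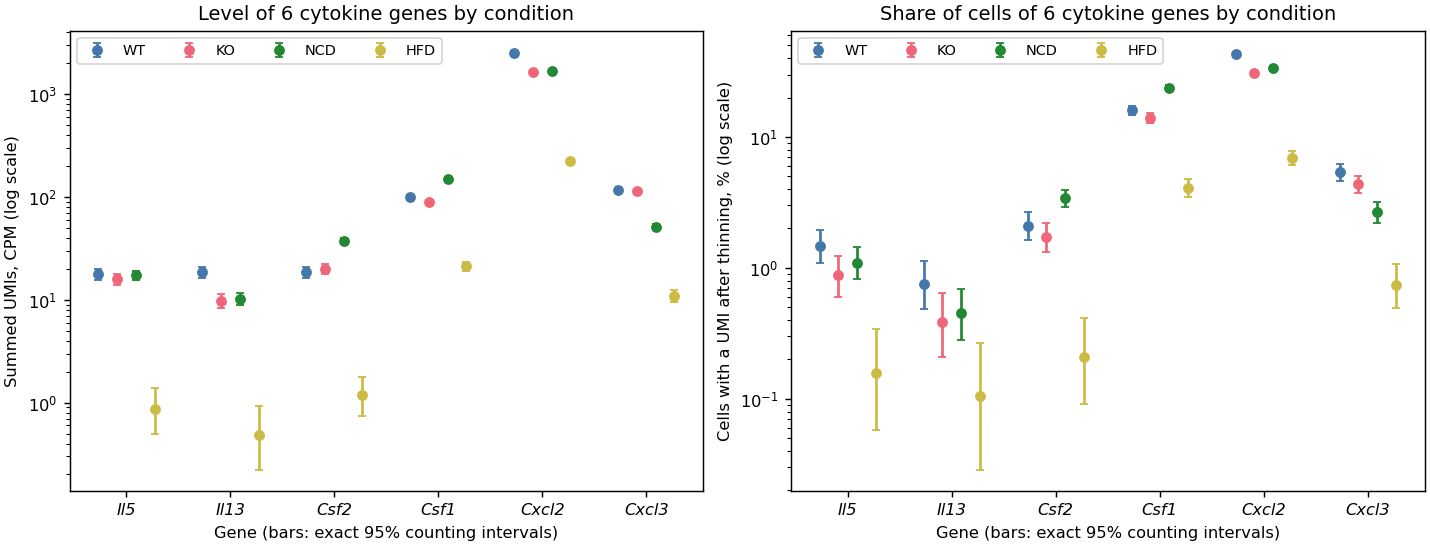
Level of each gene as CPM of summed UMIs (left, log axis) and share of cells with a UMI after thinning each cell to 2000 UMIs (right, log axis) in WT, KO, NCD and HFD, with exact 95% counting intervals. HFD was lowest for all 6 genes on both axes, from 0.485 CPM for Il13 to 222 CPM for Cxcl2.

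B cells, which should lack these T cell products, were used to measure free RNA. They were droplets with 3 or more Cd79a UMIs and none of Cd3e, Foxp3 or Lyz2, 73 in the Srebf2 pool (median 4298 UMIs) and 179 in the diet pool (median 3683 UMIs). In the Srebf2 pool an Il5 UMI was found in 1 of them (1.37%, 0.0347 to 7.40), a Csf2 UMI in 1, a Csf1 UMI in 2 (2.74%) and a Cxcl2 UMI in 6 (8.22%, 3.08 to 17.0). None held Il13 or Cxcl3, which allows a share of up to 4.11%. So the WT and KO shares of Csf1 and Cxcl2 were above those of B cells and those of Cxcl3 above its limit, and those of Il5, Il13 and Csf2 lay within what so few B cells can bound. No B cell of that pool held more than 2 UMIs of any of the 6, against the up to 54 UMIs of Il5 and 39 of Il13 in single kept cells. In the diet pool 4 B cells held Cxcl2 (2.23%, 0.612 to 5.62) and none held the other genes, which allows up to 1.68%. The HFD shares of Il5, Il13, Csf2 and Cxcl3 and the NCD share of Il13 were under that limit and could not be told from background as shares at this depth, whereas the HFD shares of Csf1 and Cxcl2 were above it.

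The first comparison asked how the genes differ when Srebf2, a regulator of cholesterol synthesis, is deleted in Foxp3-expressing cells. None of the 6 was lower by 2-fold or more in KO, a size that 1.45% of the 13212 genes with 20 or more UMIs reached, and none was higher by that size, which 2.29% of genes reached. The median log2 ratio of KO over WT was −0.16 over the 6 genes and 0.01 over all genes. Il13 came closest, at −0.94 (−1.23 to −0.65), and Cxcl2 was at −0.62 (−0.64 to −0.60), or 1.54-fold lower. Csf1 was at −0.16 (−0.27 to −0.06), and the intervals of Il5 (−0.16), Csf2 (0.10) and Cxcl3 (−0.04) included equal levels.

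Counted as cells, all 6 genes were found in a smaller share of KO than of WT cells. The WT share was 1.51-fold the KO share for Il5, 1.59-fold for Il13, 1.30-fold for Csf2, 1.13-fold for Csf1, 1.36-fold for Cxcl2 and 1.26-fold for Cxcl3. The intervals of this ratio left out equal shares for Il5, Csf1, Cxcl2 and Cxcl3 and included them for Il13 and Csf2. Mean UMIs per holding cell were higher in KO for Il5 (3.20 against 2.28), Csf2 (2.93 against 2.03) and Cxcl3 (7.47 against 5.90), and the sums were close to equal. The medians were the same in KO and WT, at 1 for Il5 and Csf2 and 2 for Cxcl3. Single cells set some of these sums. Without the cell richest in the gene, the log2 ratio was 0.19 for Il5, −0.26 for Csf2 and 0.11 for Cxcl3, each with its sign turned, and −1.34 for Il13. This left out 1 cell from 1 condition only, and the richest cell of the other condition stayed. For Il5 a WT cell with 54 UMIs was left out and a KO cell with 47 stayed. For Il13 a KO cell with 39 was left out and a WT cell with 38 stayed. The ratios with both left out were not computed.

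The second comparison asked how the genes differ after a high-fat diet. All 6 were lower by more than 2-fold in HFD, a size and direction that 7.42% of 13556 genes reached, and none was higher (9.68% of genes). The median log2 ratio of HFD over NCD was −3.62 over the 6 genes and 0.09 over all genes. Csf2 was lowest at −4.96 (−5.67 to −4.38), or 31.1-fold, followed by Il13 at −4.32 (−5.54 to −3.44) and Il5 at −4.29 (−5.16 to −3.62), whose intervals overlap. Cxcl2 was at −2.94 (−2.99 to −2.89), Csf1 at −2.83 (−2.98 to −2.68) and Cxcl3 at −2.23 (−2.46 to −2.02).

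For each gene, more of this log2 ratio lay in the share of holding cells than in the UMIs per holding cell. The NCD share of cells was 17.6-fold the HFD share for Csf2, 9.59-fold for Il5, 6.85-fold for Il13, 5.97-fold for Csf1, 4.83-fold for Cxcl2 and 4.38-fold for Cxcl3. Mean UMIs per holding cell were also lower in HFD: 1.50 against 5.02 for Il13, 1.33 against 3.07 for Il5, 1.57 against 3.11 for Csf2 and 11.6 against 20.2 for Cxcl2. For Csf1 (1.38 against 1.80) and Cxcl3 (4.23 against 4.97) these means lay closer. A median holding cell had 1 UMI in both conditions for Il5, Csf2 and Csf1. In HFD and NCD it had 1 and 2 for Il13 and Cxcl3, and 2 and 7 for Cxcl2. A few rich NCD cells thus set the means of Il5 and Csf2, and so few HFD holding cells could miss such cells. In HFD 86.4% of cells held none of the 6 genes, against 38.2% in NCD, 38.6% in WT and 49.2% in KO. HFD cells were shallower at the median. After every cell was thinned to 2000 UMIs, which left out 286 NCD and 711 HFD cells, the ratios still ran from −4.77 for Csf2 to −1.50 for Cxcl3.

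**Figure D2:**
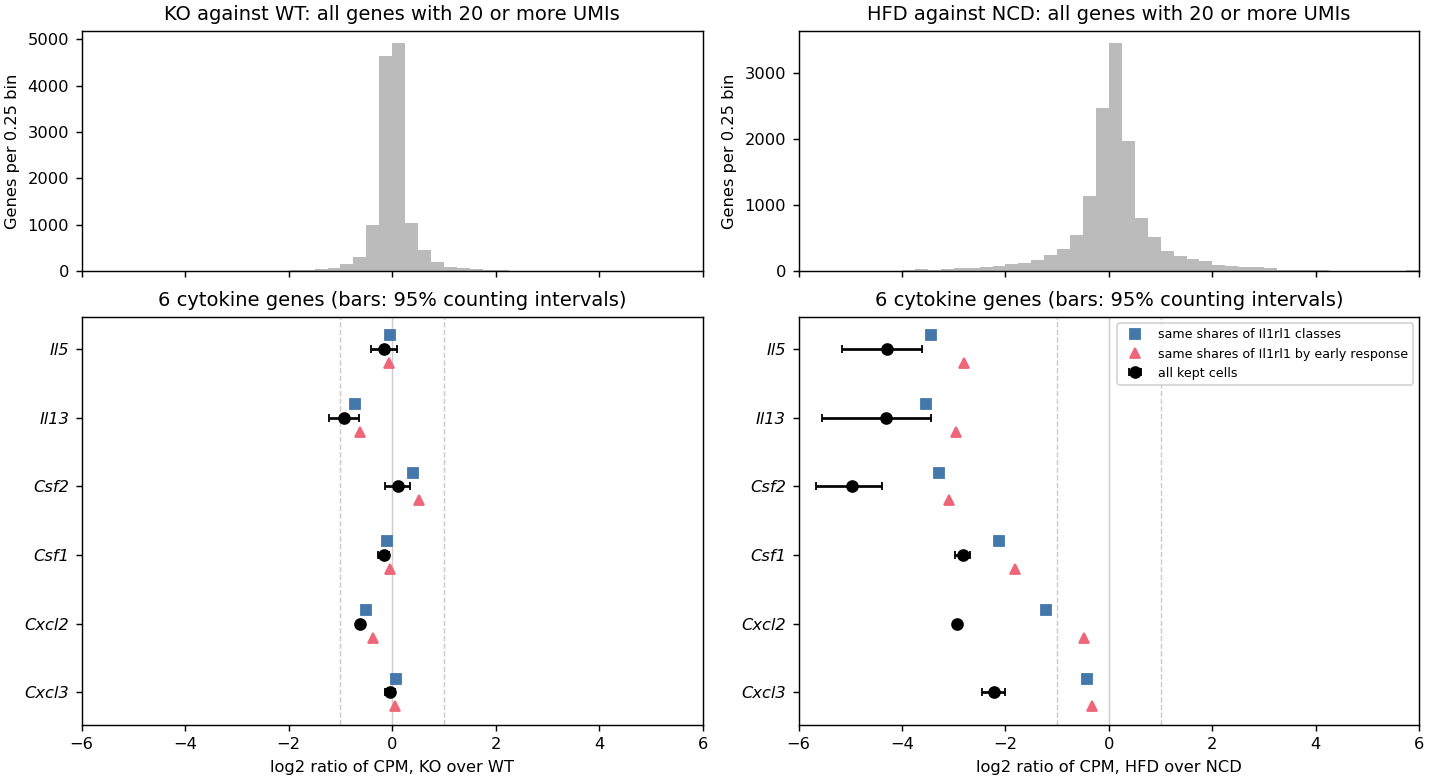
log2 ratios of CPM for KO over WT (left) and HFD over NCD (right): histograms of all genes with 20 or more UMIs above, and below them the 6 genes in all kept cells (black, with 95% counting intervals) and with both conditions given equal shares of Il1rl1 classes (squares) or of Il1rl1 by early response classes (triangles). Dashed lines mark 2-fold. In HFD both chemokine genes lie within 2-fold with the joint classes (triangles), whereas Il5, Il13, Csf2 and Csf1 stay beyond it. Squares and triangles compare averaged levels, in which classes with high levels weigh most, and do not give the ratio within each class. The Cxcl3 squares and triangles were not recomputed without the 1 HFD cell that held 57 of its 203 UMIs.

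Cells were then split by Il1rl1, the ST2 gene. Classes of 0, 1 to 2 and 3 or more Il1rl1 UMIs after thinning are ranges and not cell types, and 25.1% of WT and 20.9% of KO, and 24.1% of NCD and 7.02% of HFD cells had exactly 1 UMI. Cells with 3 or more were 18.4% of WT and 14.5% of KO, and 24.7% of NCD and 3.68% (140 cells) of HFD cells. In NCD the level of Cxcl2 was 1100 CPM at 0, 1955 at 1 to 2 and 2111 at 3 or more Il1rl1 UMIs, and that of Csf2 was 21.1, 39.4 and 58.0 CPM. Il5 was at 6.30, 27.5 and 14.3 CPM and Il13 at 6.90, 12.3 and 11.3 CPM. Single cells set these values: without the richest cell of each class Il5 was at 5.25, 15.5 and 12.8 CPM and Il13 at 2.25, 6.44 and 7.91 CPM. The share of NCD cells with Il13 after thinning was 0.201%, 0.547% and 0.609% from the lowest to the highest class.

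In the class richest in Il1rl1, 140 HFD cells, the chemokine genes were not lower in HFD, whereas the other genes were. In cells with 3 or more Il1rl1 UMIs, Cxcl2 was at 2486 CPM in HFD and 2111 in NCD (log2 ratio 0.24, 0.16 to 0.32), and was found after thinning in 43.6% and 43.7% of cells. Cxcl3 was at 186 CPM in HFD and 37.5 in NCD there, but 57 of the 106 HFD UMIs were in 1 cell. Without the richest cell of each condition these levels were 86.0 and 29.4 CPM for Cxcl3 and 2159 and 2074 for Cxcl2. In the same class Csf1 was at 79.0 CPM in HFD and 164 in NCD (−1.04, −1.52 to −0.62). Csf2 was at 8.78 and 58.0 CPM (−2.59, −4.36 to −1.49), with 5 UMIs in HFD. Il5 and Il13 had 1 UMI each in HFD, against 76 and 60 in NCD, and log2 ratios of −2.45 (−8.35 to −0.51) and −2.11 (−8.01 to −0.15). The other classes did not part in this way. At 1 to 2 Il1rl1 UMIs (409 HFD cells), Cxcl2 was at 916 CPM in HFD and 1955 in NCD and Cxcl3 at 27.5 and 68.1 CPM, with log2 ratios of −1.09 and −1.30, beside −2.14 for Csf1. In cells with no Il1rl1 UMI, Cxcl2 was at 58.2 CPM in HFD and 1100 in NCD (−4.24, −4.34 to −4.14) and Cxcl3 at 3.00 and 41.2 CPM (−3.77), both farther apart than Csf1 at 17.3 and 117 CPM (−2.75).

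**Figure D3:**
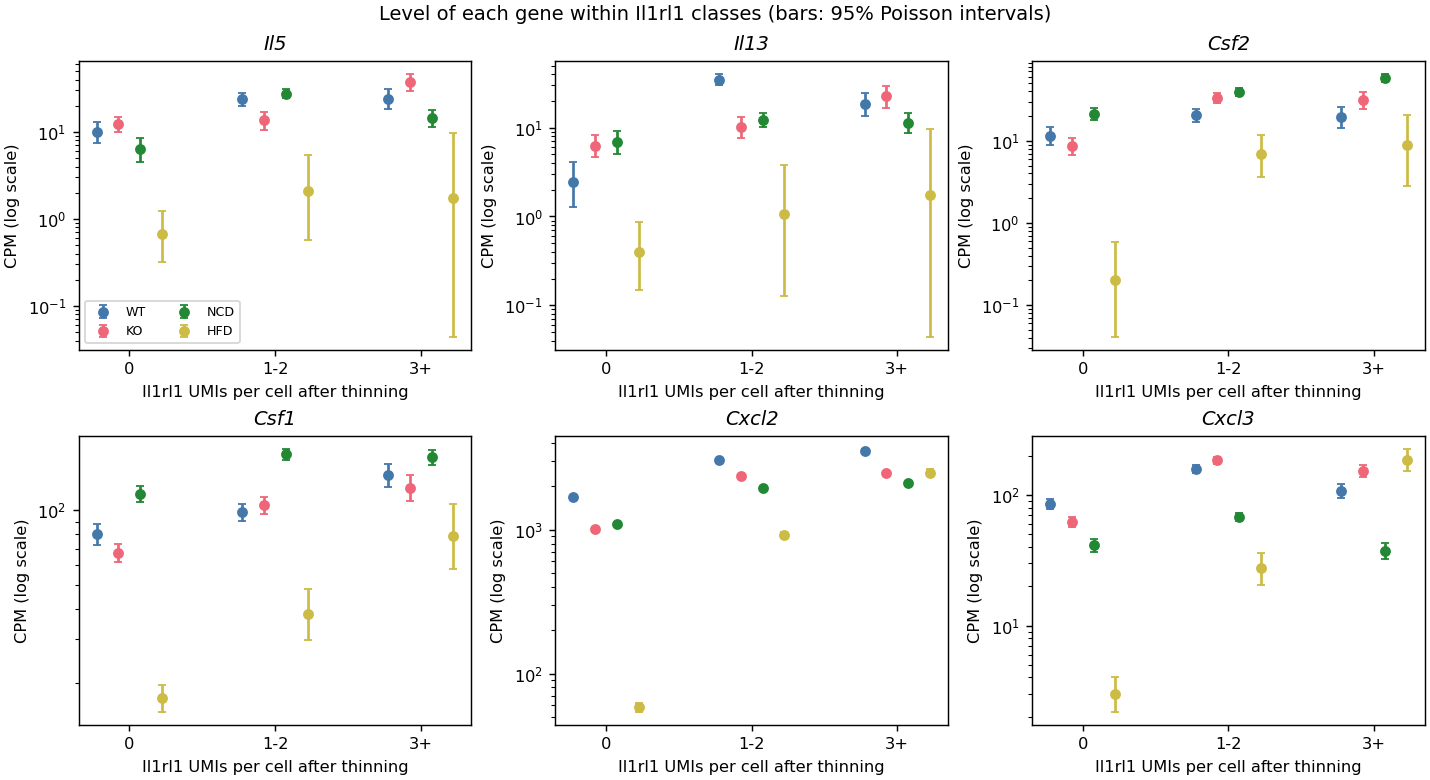
Level of each gene (CPM, log axis, 95% Poisson intervals) in cells with 0, 1 to 2 or 3 or more Il1rl1 UMIs after thinning, for the 4 conditions. HFD lies close to NCD at 3 or more UMIs for Cxcl2 (2486 and 2111 CPM) and stays below it for Csf1 (79.0 and 164 CPM) and Csf2 (8.78 and 58.0 CPM).

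In the Srebf2 pool the same classes gave a steady picture for Cxcl2 and an uneven one for Il13. Cxcl2 was lower in KO in all 3 classes, at −0.74, −0.35 and −0.51 from no to 3 or more Il1rl1 UMIs. Il13 was at 1.33 (0.47 to 2.37), −1.76 (−2.22 to −1.33) and 0.29 (−0.31 to 0.90). In the lowest class 39 of 52 KO UMIs were in 1 cell, and without the richest cell of each condition Il13 was there at 1.57 CPM in KO and 1.12 in WT. In the middle class the corresponding levels were 5.87 CPM in KO and 28.3 in WT. Of the 201 WT UMIs in that class, all were in 25 cells. With both conditions given the same class shares, Il13 was at −0.71 and Cxcl2 at −0.50.

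Genes of the early response to stimulation, which are also known to rise while tissue is digested to single cells, moved with the diet. Of 12 such genes 11 were lower by more than 2-fold in HFD, a size and direction that 7.42% of all genes reached. Their median log2 ratio was −2.19. Atf3 was at −3.65, Egr1 at −3.60, Fosb at −2.78 and Hspa1b at −2.57. In KO none of the 12 passed 2-fold, and the median was −0.30. The part of tissue handling in the diet results was not tested. Cells of each pool were also split into tertiles by their summed early response UMIs after thinning, at 24 and 48 UMIs in the Srebf2 pool and 10 and 31 in the diet pool. The highest tertile held 52.2% of NCD and 9.84% of HFD cells, and 37.6% of WT and 28.2% of KO cells.

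In cells with an Il1rl1 UMI and in the highest tertile, Cxcl2 was at 3141 CPM in the 198 HFD cells and 2770 in the 1922 NCD cells, and was found after thinning in 46.5% and 49.2% of them. In the lower tertiles of cells with an Il1rl1 UMI Cxcl2 was lower in HFD, at 594 CPM against 1304 in the middle tertile and 24.0 against 188 in the lowest. In the highest tertile of these cells Csf1 was at 71.9 CPM in HFD and 180 in NCD. Csf2 was at 6.54 and 57.6 CPM, and Il13 had 0 and 135 UMIs. In the highest tertile without an Il1rl1 UMI, Cxcl2 was at 702 CPM in HFD and 2141 in NCD, and was found in 18.2% and 40.7% of cells. With both conditions given the same shares of these joint classes, a choice made after seeing the data, Cxcl2 was at −0.49 and Cxcl3 at −0.32 in HFD over NCD. Csf1 was then at −1.82, Il5 at −2.79, Il13 at −2.95 and Csf2 at −3.10, so that 4 of 6 genes were lower by 2-fold. These values compare averaged levels, in which classes with high levels weigh most. Cxcl2 and Cxcl3 were lower in HFD in every joint class but the highest tertile with an Il1rl1 UMI. There Cxcl3 was at 154 CPM in HFD, from 118 UMIs, and 44.9 in NCD. In the lowest tertile without an Il1rl1 UMI, Cxcl2 was at 8.94 CPM in HFD and 190 in NCD, and Cxcl3 at 0.861 and 55.4. With early response tertiles alone the chemokine genes were at −0.85 and −0.79, and with Il1rl1 classes alone at −1.22 and −0.43. Within the lowest, middle and highest tertiles Cxcl2 was at −4.29, −2.73 and −0.34. Cxcl3 was at −5.41, −2.78 and 1.13 there. For Cxcl3, 1 HFD cell held 57 of 203 UMIs. It lay in the class with 3 or more Il1rl1 UMIs, to which equal shares give more weight in HFD. The Cxcl3 values with equal shares were not recomputed without it. In KO over WT the joint classes left Cxcl2 at −0.38 and Il13 at −0.63.

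**Figure D4:**
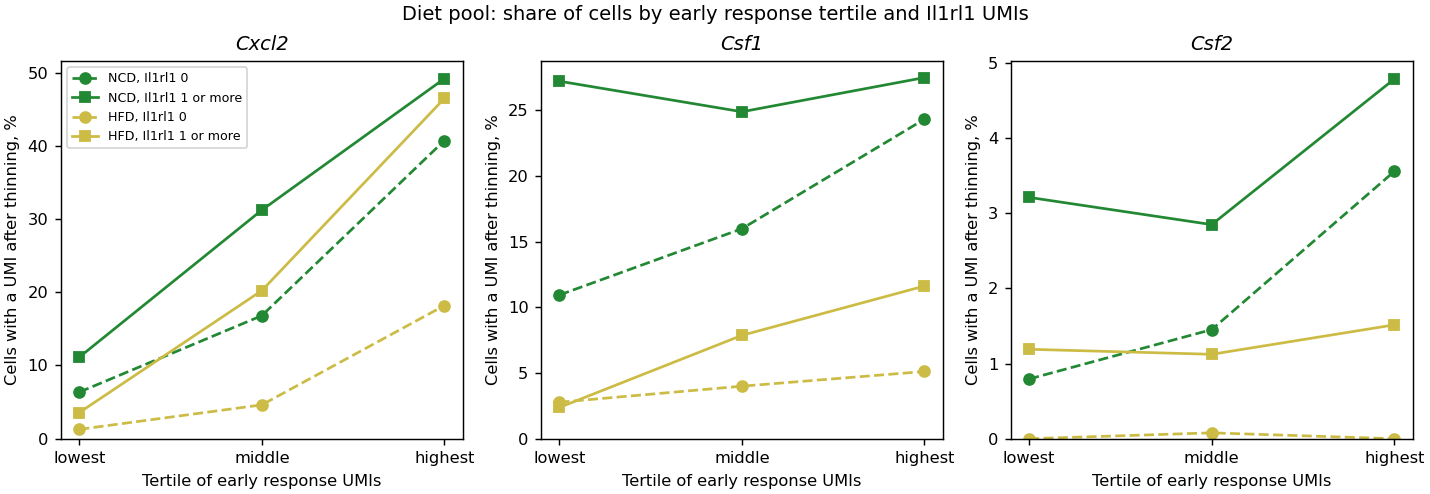
Share of NCD and HFD cells with a UMI of Cxcl2, Csf1 or Csf2 after thinning, by tertile of early response UMIs, for cells with no Il1rl1 UMI (circles, dashed) and 1 or more (squares, solid). For Cxcl2 the squares lie close only in the highest tertile (46.5% of HFD and 49.2% of NCD cells), whereas for Csf1 (11.6% and 27.5%) and Csf2 (1.52% and 4.79%) they stay apart.

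The genes were found together in the same cells to differing degrees. Of cells with Il13, 31.1% (14 of 45) in WT, 31.2% (10 of 32) in KO and 17.8% (8 of 45) in NCD also held Il5, against 2.76%, 1.83% and 2.41% of other cells. No HFD cell held both. Of cells with Cxcl3, 82.4% in WT and 79.3% in KO, and 70.9% in NCD and 70.8% in HFD also held Cxcl2, against 44.6%, 32.0%, 36.3% and 7.17% of other cells. Cells with Il5 held Cxcl3 more often as well, in 28.4% of WT, 36.6% of KO and 29.4% of NCD cells, against 7.34%, 5.70% and 4.01% of others. Csf1 kept apart from this pattern: it was found in 24.8% of WT, 15.9% of KO and 34.1% of NCD cells with Il5, against 26.1%, 23.3% and 38.0% of cells without. Cells with Csf2 held Csf1 in 41.4% of WT, 31.2% of KO and 54.3% of NCD cells, against 25.5%, 22.9% and 36.9% of others. Deeper cells show more of every gene: the median was 6443 UMIs in WT cells with Il5 and 3535 in WT cells without, and 3931 and 3425.5 in those with and without Csf1.

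**Figure D5:**
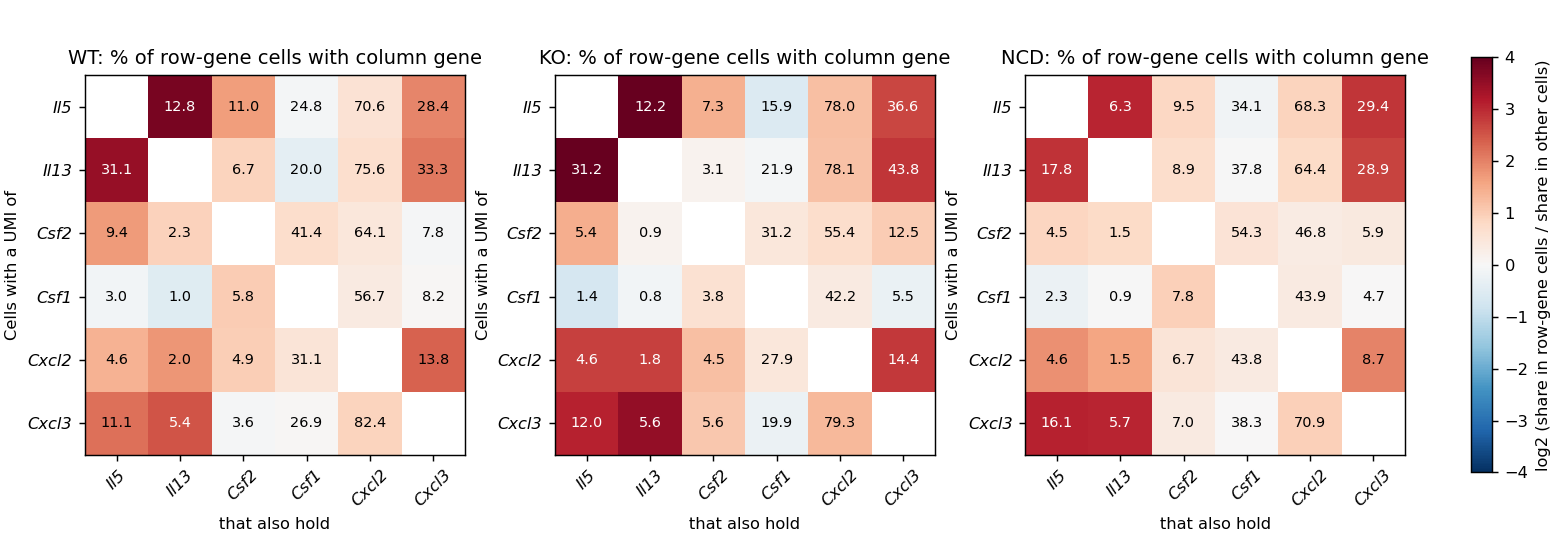
Percent of cells holding the row gene that also hold the column gene in WT, KO and NCD (numbers), coloured by the log2 ratio to the percent in cells without the row gene; HFD is left out because as few as 6 cells hold a gene. The Il5 and Il13 pair is red in all 3 conditions, as are Il5, Il13 and Cxcl2 with Cxcl3, and the Csf1 column is pale.

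The cells with Il5 or Il13 were read for the 6 Treg markers and other genes of a list of markers. Of the Treg markers, Foxp3 and Ikzf2 are given here, and Cd3e for Il5 only. Il2ra, Ctla4 and Cd4 are not given, nor is Cd40lg, so the values do not settle whether these cells were Treg cells. After thinning to 2000 UMIs, Foxp3 was found in 33.3% of WT, 30.0% of KO and 34.1% of NCD cells with Il5, against 38.3%, 38.0% and 33.2% of cells without. Cd3e, a chain of the T cell receptor complex, was found in 75.0% to 83.8% of cells with Il5 in these conditions and in 83.0% to 84.0% of others. Ikzf2, the gene of the Treg factor Helios, was found in 56.5% (46.6 to 66.0) of WT, 65.0% of KO and 67.5% of NCD cells with Il5, against 69.7%, 69.0% and 71.5% of others. In cells with Il13, Foxp3 was found in 41.9% of WT, 29.0% of KO and 24.4% of NCD cells, against 38.1%, 37.9% and 33.3% of others. Ikzf2 was found in 55.8%, 74.2% and 68.9% of them, against 69.5%, 68.9% and 71.4%. Cells in which Cd3e, Cd3d, Cd3g, Cd4 and Foxp3 were all at 0 numbered 33 in WT and 37 in KO, and 48 in NCD and 63 in HFD, with median depths of 1032 to 1690 UMIs. None of them held a UMI of Il5 or Il13, but so few and shallow cells would hold about 1 or none at the shares given above.

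Other markers differed in part. Klrg1, an inhibitory receptor, was found in 94.4% of WT, 93.8% of KO and 90.5% of NCD cells with Il5, against 72.5%, 58.0% and 76.2% of others. Il1rl1 was found in 75.9%, 68.8% and 83.3% of them, against 59.1%, 47.2% and 67.5%. Gata3 was found in 68.5% of WT, 61.3% of KO and 70.6% of NCD cells with Il5, against 51.8%, 46.8% and 60.8% of others. In cells with Il13 it was found in 32.6% (19.1 to 48.5) of WT, 58.1% of KO and 62.2% of NCD cells, against 52.7%, 47.1% and 61.1%, so that WT lay below the other cells there. Il10, the anti-inflammatory cytokine, was found in 27.9% of WT, 22.6% of KO and 28.9% of NCD cells with Il13, against 10.0%, 10.5% and 8.75% of others. Areg was found in 65.7% of WT cells with Il5 and 62.1% of those without. Cxcr3, a receptor of type 1 T cells, was found in at most 1.59% of cells with Il5 in these 3 conditions, against 10.1% to 18.0% of others.

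Cells with Cxcl2 stood out by Areg, which encodes the tissue repair factor amphiregulin: 77.8% of WT, 72.1% of KO and 80.3% of NCD cells with Cxcl2 held it, against 47.2%, 43.7% and 47.2% of others. In HFD these shares were 67.4% and 24.5%, and Il1rl1 was found in 53.7% of HFD cells with Cxcl2 and 10.7% of those without. Foxp3 differed less, at 39.4% and 37.0% in WT and 35.7% and 27.0% in HFD. The few HFD cells with a chemokine UMI were thus more often cells with Il1rl1 and Areg.

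Across all genes, those most raised in holding over other cells in both WT and NCD were ranked by the smaller of the 2 log2 ratios, among genes found in 20% or more of holding cells. For Cxcl2 these were Atf3 (1.59 in WT and 1.35 in NCD), Areg (1.40 and 1.26), Mir155hg (1.10 and 1.18), Tmtc2 (1.22 and 1.10) and Nr4a1 (1.01 and 1.09). For Cxcl3 they were Stx11 (1.35 and 1.75), Mt1, AI506816, Ctsh and Tnfrsf9. For Il13 they were Irf8 (3.48 and 2.80), Mt1 (2.44 and 3.19), Apex1, Rgs16 and Il10 (1.64 and 2.30), over 45 holding cells in each. Il5 had Lig1 (1.69 and 1.46), Adarb1, Igfbp7, Tox2 and Srm. The values for Csf2 and Csf1 were smaller: Pxdc1 led for Csf2 (0.89 and 0.90), before Pcsk1, Furin, Igfbp7 and Lmna, and Pros1 for Csf1 (0.71 and 0.68), before Lmna, Myadm, AA467197 and Ccr3. Mt1 was in the lists of Il13 and Cxcl3, Igfbp7 in those of Il5 and Csf2, and Lmna in those of Csf2 and Csf1. Holding and other cells differ in depth, as given above, and the ratios describe these 2 pools.

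Of 27 regulators and receptors upstream of type 2 cytokines, 6 were lower and 4 higher by 2-fold in HFD, and none in KO. Of all genes, 7.42% were lower and 9.68% higher by that size in HFD, and 1.45% and 2.29% in KO. Pparg, the nuclear receptor of adipose Treg cells, was at 71.2 CPM in NCD and 8.84 in HFD (−3.01), and Il1rl1 at 803 and 131 CPM (−2.61). Il2ra, a chain of the interleukin-2 receptor, was at −1.76, whereas Bhlhe40, a transcription factor that favours cytokine production in T cells, was higher, at 55.4 and 221 CPM (2.00). In KO the farthest were Bhlhe40 (0.82), Stat5a (0.70), Stat5b (0.61) and Il2rb (0.31), all within 2-fold.

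Apart from Il4ra, the receptors for the 6 products were little expressed in the Treg cells themselves. Of 10 receptor genes 3 had 20 or more UMIs in each comparison, and the 1 past 2-fold was Il13ra1 in HFD (1.13, −0.16 to 2.61), with 8 UMIs in NCD and 15 in HFD. Cxcr1, Cxcr2 and Il13ra2 were at 0 in all 4 conditions, and Il5ra had 8 UMIs in NCD, 1 in HFD and 0 in WT and KO. Il4ra, which pairs with Il13ra1 to bind interleukin-13, was at 83.2 CPM in WT and 86.3 in KO, and 67.8 in NCD and 58.9 in HFD, and Il13ra1 at 0.0714, 0.243, 0.360 and 0.809 CPM. Csf2ra, the binding chain of the receptor for the Csf2 product, was at 8.71, 7.97, 5.95 and 5.28 CPM, a log2 ratio of −0.13 in KO and −0.17 in HFD.

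Of 36 other cytokine and chemokine genes, 23 had 20 or more UMIs in each comparison. By 2-fold, 7 were lower and 4 higher in HFD, where 7.42% and 9.68% of all genes were. None was lower and 4 were higher in KO, where 1.45% and 2.29% of all genes were. In HFD the farthest were Il21 (0 UMIs in NCD and 1.13 CPM in HFD), Lta (3.06 and 22.6 CPM), Ccl1 (10.7 and 1.62 CPM) and Il10 (82.8 and 14.9 CPM). In KO they were Penk (1.64), Ccl1 (1.41), Ccl5 (1.24) and Tnfsf8 (1.08). Il4, the cytokine most often made with Il5 and Il13, was at only 0.571 CPM in WT and 0.608 in KO, and 1.26 in NCD and 1.02 in HFD, and Il3 and Il9 had no UMI in any condition. A total without UMIs allows up to 3 UMIs, or 0.135 to 0.214 CPM in these conditions.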

How the data were processed

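The authors deposited unnormalised UMI counts of genes and hashtags for each barcode, per the file headers. Counts came from Cell Ranger 7.0.1 on the mm10 build per the submitters' processing notes; the matrix header of the Srebf2 pool names 7.1.0 and that of the diet pool 7.0.1. The files held 9036 and 11456 barcodes; the sources used here give no further filters of the authors. The 4 conditions came to 14010241 (WT), 16444262 (KO), 22200627 (NCD) and 18543516 (HFD) UMIs in kept cells.

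Droplets with less than 90% of hashtag UMIs from 1 hashtag were left out, which removes doublets across conditions; doublets within a condition remain. Counts were summed per condition and given as CPM with exact Poisson intervals, shares with exact Clopper-Pearson intervals, and ratios with the exact interval of the binomial split. A log2 ratio adds 0.5 counts to each sum. Genes with 20 or more UMIs over both conditions were counted past 2-fold, which is a size and no test. Zero counts were bounded at 3 counts. Thinning drew 2000 UMIs per cell with a fixed seed. Python 3.11.15, numpy 2.4.6, scipy 1.17.1 and matplotlib 3.10.9 were used, and the code was tested on simulated data.

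Members, lists, motifs and the naming rule were chosen with earlier results of these data known. Named were the 6 members, up to 4 genes per list farthest from equal levels, receptors and other cytokines by level, and the 5 genes most like each member. Alternatives covered hashtag, gene, mitochondrial, marker and summed UMI filters, Foxp3-positive cells, scaling, the richest cell, cells in place of UMIs, thinning, and equal class shares. Positions, promoters and gene order came from RefSeq tables of build GRCm38.p6, which held all 6 members.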

Additional observations from a re-analysis of the deposited data

How the results depend on the processing

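No paired analysis was possible because the labels give each condition 1 pooled sample and no replicate numbers. In HFD the 6 genes kept their direction under all 15 alternatives, and at least 4 of 6 stayed lower by 2-fold. In both comparisons 1 of the 15, without the filter on summed UMIs, could not change a value, because all 6 genes passed that filter. Cxcl2 and Cxcl3 were within 2-fold with equal shares of early response tertiles or of joint classes. Cxcl3 was so with equal shares of Il1rl1 classes as well. Such values compare averaged levels, in which classes with high levels weigh most. Within the lowest and the middle tertile both chemokine genes were lower by more than 2-fold in HFD. The HFD values ran from −3.02 to −0.49 for Cxcl2, −2.31 to −0.32 for Cxcl3, −2.91 to −1.82 for Csf1, −5.09 to −3.10 for Csf2, −4.55 to −2.79 for Il5 and −4.47 to −2.68 for Il13. In KO, 1 gene (Il13) in place of 0 was lower by 2-fold with 95% or more of UMIs from the own hashtag (−1.001). The same held for 1 gene (Il13 again, −1.34) without the KO cell richest in it, with the richest WT cell kept. The cause was not tested. Il13 and Cxcl2 stayed below 0 in KO under all 15, from −1.34 to −0.48 and −0.67 to −0.38, as did Csf1 (−0.19 to −0.03), whereas Il5 (−0.59 to 0.19), Csf2 (−0.37 to 0.51) and Cxcl3 (−0.33 to 0.12) changed sign. Scaling by the median of ratios shifted all values by 0.01 in KO and 0.08 in HFD. Of the 3 added alternatives, leaving out barcodes found in both libraries moved no gene past or back over 2-fold. Few holding cells, 6 to 14 in HFD for Il5, Il13 and Csf2, limit every statement on them, and 1 pool of mice per condition leaves the spread between mice unmeasured.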

Other observations

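Genes between and beside the members were read on both chromosomes. On chromosome 11, Rad50, a DNA repair gene that lies between Il13 and Il5, was at 71.8 CPM in NCD and 59.1 in HFD (log2 ratio −0.28), and Irf1, the interferon-responsive factor beyond Il5, at 151 and 191 CPM (0.34), beside −4.32 for Il13 and −4.29 for Il5. P4ha2, a prolyl hydroxylase gene between Il5 and Csf2, was at 0.901 CPM in NCD and 0.162 in HFD (−2.29), and Slc22a5, a carnitine transporter gene, at 5.95 and 10.2 CPM (0.78). The HFD level of P4ha2 is that of only 3 UMIs, so its ratio rests on very few counts. On chromosome 5, Cxcl1, a neutrophil chemokine between Cxcl3 and Cxcl2, was at 27.8 CPM in WT and 33.3 in KO, and 10.7 in NCD and 2.53 in HFD (−2.06 for HFD over NCD). Cxcl5, another such chemokine, was at 3.50, 5.11, 1.76 and 0.377 CPM (−2.14). These neighbours were read from their order in the RefSeq table and chosen after their values were seen.

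Cells that the marker filter had left out also held Cxcl2. Among cells with 3 or more UMIs of Lyz2, a gene of macrophages and other myeloid cells, Cxcl2 was at 674 CPM in 127 NCD cells and 1461 CPM in 18 HFD cells, and was found in 44.9% and 72.2% of them. Their median depths were 13127 and 30908 UMIs, so these shares were read at unequal depths. The corresponding levels were 238 CPM in 20 WT and 1003 CPM in 20 KO cells. No such cell held Il13, and 3 NCD cells held Il5. Without the marker filter the log2 ratio of Cxcl2 in HFD over NCD was −2.54 in place of −2.94.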
